A study of Mus musculus with 20 samples.

Results

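The genes described here encode the machinery that moves Ca2+ between the endoplasmic reticulum (ER), the cytosol and the outside of the cell. They are the ER Ca2+ sensors Stim1 and Stim2, the plasma membrane channel subunits Orai1, Orai2 and Orai3, the IP3 receptors Itpr1, Itpr2 and Itpr3, the ER pump Atp2a2 (SERCA2) and the plasma membrane pump Atp2b1 (PMCA1). They were chosen by gene symbol, and all 10 were found among the 21963 entries of the count table. All 10 passed the filter on low counts and were among the 11707 genes tested. The lowest count of any of them in any library was 128 reads, for Orai3.

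RNA was measured by sequencing in 20 libraries of bone marrow-derived macrophages (BMDMs), which are macrophages differentiated in culture from mouse marrow. The 5 groups were untreated WT cells (n = 4), WT cells given zymosan for 3 h (n = 5), WT cells given zymosan with 10 µM BAPTA-AM (n = 4), untreated Mcu-/- cells (n = 4) and Mcu-/- cells given zymosan (n = 3). Zymosan is a yeast cell wall particle that macrophages recognize, added here at 2 particles per cell, and BAPTA-AM is a membrane-permeant chelator that buffers cytosolic Ca2+. Mcu encodes the pore of the mitochondrial Ca2+ uniporter. Per the study's results the gene was floxed and deleted by Cx3cr1-cre, and per its methods the mice were 15 to 25 weeks old. Whether the WT mice carried the Cre is not given in the sources used here, and neither are the marrow donors behind each library, so p-values measure the spread between libraries.

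When IP3 receptors open, Ca2+ leaves the ER. STIM proteins sense the fall of ER Ca2+, move to junctions with the plasma membrane and open ORAI channels, a process called store-operated Ca2+ entry. SERCA pumps then return Ca2+ to the ER and PMCA pumps expel it from the cell. In macrophages, receptors for particles such as zymosan couple through Syk and phospholipase C to IP3, and mitochondria take up part of the Ca2+ released near them.

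Total counts ranged from 14.4 M to 24 M per library. Levels are given as CPM, counts divided by the library size after scaling with TMM factors, and as CPM per kb of exon (RPKM) where genes are compared with each other. Mcu itself was at 6.1 to 9.55 CPM in the 13 WT libraries and at 2.63 to 4.05 CPM in the 7 Mcu-/- libraries, so the labels of genotype held in all of them. All 8 macrophage markers checked (Adgre1, Cd68, Csf1r, Lyz2, Itgam, Mertk, Fcgr1 and Mrc1) were detected. Untreated Mcu-/- replicate 4 stood apart from replicates 1 to 3: its summed macrophage markers were 8610 CPM, where replicates 1 to 3 had 14600 to 14900 CPM and the Mcu-/- zymosan libraries 9350 to 9620 CPM. Lyz2 and Adgre1 made up most of that sum, and the 8 markers went both ways in replicate 4: Lyz2, Adgre1, Itgam and Mrc1 were below replicates 1 to 3, and Cd68, Fcgr1, Mertk and Csf1r above (Fcgr1 at 518 against 118 CPM, Csf1r at 1270 against 814 to 861 CPM). The biological coefficient of variation of the fit was 12.4% with this library and 3.56% without it, so results on the 10 genes are given with and without it where the call differs, and those on other pathway genes by their counts.

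The promoters of Stim2, of the 3 ORAI genes, which moved in both directions, and of Itpr3 are shown, to give the sequence context of each start site. They are the 250 bases before the RefSeq start (GRCm38.p6, the mm10 assembly), written 5′ to 3′ on the strand of the gene, and capitals mark matches of a loose κB pattern (3 G, any 5 bases, then 2 C) on either strand. RefSeq promoters were matched for 8 of the 10 genes, with none for Itpr1 and Atp2a2. Stim2 (chr5:53998273-53998522, plus strand) and Orai2 (chr5:136170657-136170906, minus strand) rose with zymosan, and Orai1 (chr5:123014824-123015073, plus strand) and Orai3 (chr7:127769565-127769814, plus strand) fell. Itpr3 (chr17:27057054-27057303, plus strand) was called lower with zymosan in WT cells and higher in Mcu-/- cells, where the groups overlapped.
Stim2: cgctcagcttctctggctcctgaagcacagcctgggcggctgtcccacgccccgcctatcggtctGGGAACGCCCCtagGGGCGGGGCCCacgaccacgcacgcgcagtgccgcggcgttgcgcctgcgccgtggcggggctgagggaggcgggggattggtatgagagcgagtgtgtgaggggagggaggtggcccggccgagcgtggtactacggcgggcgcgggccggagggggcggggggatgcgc
Orai2: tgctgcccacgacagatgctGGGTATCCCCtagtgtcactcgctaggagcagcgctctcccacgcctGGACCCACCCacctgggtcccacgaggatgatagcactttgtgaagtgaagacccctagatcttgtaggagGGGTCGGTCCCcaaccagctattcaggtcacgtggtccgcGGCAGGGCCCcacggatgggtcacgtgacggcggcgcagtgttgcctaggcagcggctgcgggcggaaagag
Orai1: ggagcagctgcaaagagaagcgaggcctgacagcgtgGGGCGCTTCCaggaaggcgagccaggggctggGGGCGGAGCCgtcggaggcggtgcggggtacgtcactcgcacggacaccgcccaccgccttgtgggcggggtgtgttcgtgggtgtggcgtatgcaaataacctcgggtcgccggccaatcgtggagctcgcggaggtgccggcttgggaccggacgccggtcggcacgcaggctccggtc
Orai3: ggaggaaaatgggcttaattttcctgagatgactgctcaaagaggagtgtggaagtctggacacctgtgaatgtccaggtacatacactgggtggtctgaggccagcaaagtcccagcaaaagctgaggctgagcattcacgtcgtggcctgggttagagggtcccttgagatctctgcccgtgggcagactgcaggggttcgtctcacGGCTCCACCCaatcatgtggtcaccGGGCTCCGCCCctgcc
Itpr3: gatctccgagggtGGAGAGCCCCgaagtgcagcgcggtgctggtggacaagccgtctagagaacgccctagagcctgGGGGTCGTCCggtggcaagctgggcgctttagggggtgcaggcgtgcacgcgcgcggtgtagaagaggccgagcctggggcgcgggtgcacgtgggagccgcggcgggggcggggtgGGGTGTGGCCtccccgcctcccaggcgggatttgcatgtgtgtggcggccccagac
The κB pattern had 4 matches in the Stim2 window, 5 in Orai2, 2 in Orai1, 3 in Orai3 and 3 in Itpr3, overlapping ones included, and at least 1 match occurred in 45.8% of the 32851 mouse promoter windows of this length. The SP1 pattern GGGCGG was in all 5 windows and in 32.7% of all promoters, and in these windows its letters can overlap those of κB. Both patterns are rich in G and C, and so were these windows. Their share of G and C ran from 57.2% (Orai3) to 74.8% (Stim2), where the median of all promoter windows was 52.4%. The NFAT core GGAAA was in the windows of Orai2 (1 match) and Orai3 (2 matches) and in 55.6% of all promoters. The patterns TGANTCA (AP-1), GAGGAAGT (PU.1) and TGACGTCA (CRE) had no match in these 5 windows. A stricter κB consensus was GGGRNWYYCC, where R is A or G, N any base, W A or T and Y C or T. It had 1 match in the Itpr3 window and none in those of Stim2, Orai1, Orai2 and Orai3, and was in 3.9% of all promoters. Of the matched promoters not shown, that of Stim1, which was not called with zymosan, had 6 κB and 8 GGGCGG matches. That of Itpr2, not called with zymosan in WT cells, had 5 and 4. The windows of Atp2b1, which rose with zymosan, had 2 and 4 κB matches, and 4 and 3 of GGGCGG. These counts describe letters in the windows and were not related to the changes by a test.

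Per kb of exon, Atp2a2 was the most abundant of the 10 genes in untreated WT macrophages, at 56.3 ± 1.61 RPKM (SD, n = 4). Orai1 (14.7 ± 0.659 RPKM) and Atp2b1 (13.8 ± 1.02 RPKM) followed, with ranges that overlapped. Itpr3 (8.29 ± 0.375), Orai3 (8.07 ± 0.584) and Stim2 (7.45 ± 0.375 RPKM) came next; the ranges of Itpr3 and Orai3 overlapped, as did those of Orai3 and Stim2. Stim1 was at 4.82 ± 0.234, Orai2 at 3.72 ± 0.0857, Itpr2 at 1.77 ± 0.087 and Itpr1 at 0.571 ± 0.0455 RPKM. Part of this order depends on the length used: with the longest transcript in place of all exons, 4 of 10 genes kept their rank, and Stim1 (11.5 RPKM) moved above Stim2 (7.75 RPKM). Atp2a2 was first, and Itpr2 and Itpr1 were last, with either length.

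With zymosan the order in WT cells became Atp2a2 (64.2 RPKM), Atp2b1 (30.1), Stim2 (25.5), Orai2 (9.35), Orai1 (6.32), Itpr3 (4.94), Stim1 (4.87), Orai3 (4.53), Itpr2 (1.89) and Itpr1 (0.6 RPKM). Of the neighbours in that order, Itpr3 and Stim1 overlapped, as did Stim1 and Orai3. With the longest transcript as the length, Stim1 (11.6 RPKM) was instead above Orai1 (7.74 RPKM) and Itpr3 (4.96 RPKM), without overlap. In zymosan-treated Mcu-/- cells Itpr3 followed Stim2, at 13.9 ± 0.791 RPKM (SD, n = 3), above Orai2 at 12.2 ± 0.725 RPKM, with ranges that nearly touched. This order too depends on the length: with the longest transcript Orai2 (18.5 RPKM) was above Itpr3 (13.9 RPKM).

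**Figure D1:**
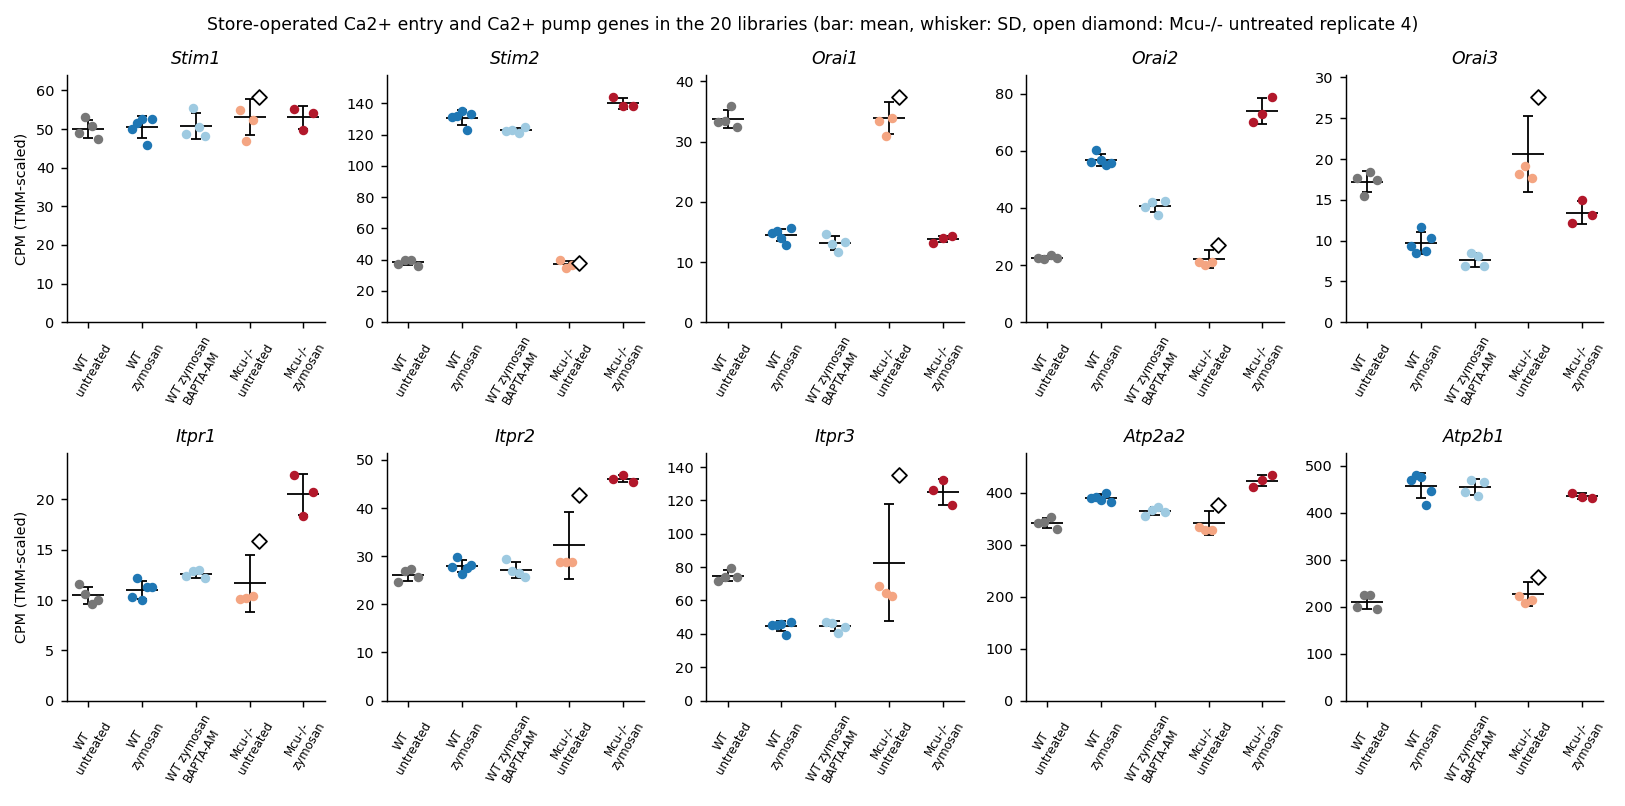
Level of each gene (y axis, CPM of the TMM-scaled library size, from 0) in each of the 20 libraries (points) of the 5 groups (x axis), with the mean as a bar, the SD as a whisker and untreated Mcu-/- replicate 4 as an open diamond. Stim2, Orai2 and Atp2b1 were higher and Orai1 lower in every zymosan library than in every untreated library, and the 3 IP3 receptors were highest in Mcu-/- zymosan libraries and, for Itpr3, in the open diamond (135 CPM).

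Zymosan against no treatment in WT cells asks how a 3 h stimulus changes these transcripts. It changed 7 of the 10: Stim2, Orai2, Atp2b1 and Atp2a2 were higher, and Orai1, Orai3 and Itpr3 were lower. Of all genes tested, 32.4% were called higher and 36.8% lower (edgeR quasi-likelihood test, Benjamini-Hochberg adjusted p under 0.05), so a count of 4 and 3 among 10 is near the background. The groups did not overlap for 7 of the 10 genes, against 69.5% of all genes tested. Without untreated Mcu-/- replicate 4 the same 7 genes were called, with 37.2% of all genes higher and 41.3% lower.

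The STIM sensors diverged. Stim2, which has a lower threshold for ER depletion than Stim1 and helps hold basal Ca2+, was at 37.4, 39.9, 39.7 and 35.9 CPM in untreated WT libraries and at 131, 132, 135, 123 and 133 CPM with zymosan. No zymosan library came near the untreated ones. The difference was 3.42-fold (log2 1.77 ± 0.04 SE, adjusted p = 2.29e-17 by edgeR; exact two-sided permutation p = 0.00794, the smallest this design allows). Stim1, the main trigger of ORAI opening, was at 47.5 to 53.1 CPM untreated and at 45.9 to 52.7 CPM with zymosan. Its difference was log2 0.01 ± 0.06 SE (adjusted p = 0.85), with overlapping groups. Stim2 thus made up 60.7% of the STIM reads per kb in untreated cells and 83.9% with zymosan, or 40.3% and 69.6% with the longest transcript as the length.

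The ORAI channel subunits, which assemble into the pore of store-operated entry, moved in both directions. Orai1, the subunit that carries the classical current, was at 33.2, 33.5, 35.9 and 32.4 CPM untreated and at 14.9, 15.1, 14, 12.9 and 15.6 CPM with zymosan. Every zymosan library was below every untreated one, 2.33-fold lower on the fit (log2 -1.22 ± 0.07 SE, edgeR adjusted p = 8.76e-12). Orai3, a paralogue found in mammals, was at 17.7, 15.5, 18.4 and 17.4 CPM untreated and at 9.4, 8.43, 11.7, 8.71 and 10.3 CPM with zymosan, a fall of 1.78-fold (log2 -0.83 ± 0.13 SE, edgeR adjusted p = 1.02e-05). Orai2, which can dampen the current of mixed channels, went the other way, from 22.6, 22.2, 23.4 and 22.4 CPM to 56.1, 60.4, 56.9, 55.2 and 55.7 CPM. That is 2.51-fold higher (log2 1.33 ± 0.07 SE, edgeR adjusted p = 2.93e-12). The ORAI sum was 26.5 ± 1.14 RPKM untreated and 20.2 ± 0.867 RPKM with zymosan, and the leading subunit changed. Orai1 made up 55.5% of ORAI reads per kb untreated and 31.3% with zymosan, and Orai2 made up 14.1% and then 46.3%. The same change of leader was seen with the longest transcript as the length, with Orai2 at 17.9% and then 53.8%.

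Among IP3 receptors, the ER channels that release stored Ca2+, only Itpr3 passed the test. It was at 71.7, 74.1, 79.7 and 73.8 CPM untreated and at 45.3, 45.5, 45.7, 39.4 and 47 CPM with zymosan, 1.68-fold lower (log2 -0.75 ± 0.16 SE, edgeR adjusted p = 0.000468). The groups were well apart. Itpr1 went from 9.63 to 11.6 CPM untreated to 10 to 12.2 CPM with zymosan (log2 0.07 ± 0.12 SE, edgeR adjusted p = 0.604), and Itpr2 from 24.6 to 27.4 CPM to 26.3 to 29.9 CPM (log2 0.10 ± 0.10 SE, edgeR adjusted p = 0.386). Itpr3 was the predominant receptor in both states, with 78.0% of IP3 receptor reads per kb untreated and 66.5% with zymosan. The summed level of the 3 receptors was 10.6 ± 0.411 RPKM untreated and 7.43 ± 0.362 RPKM with zymosan.

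The pumps rose to different degrees. Atp2b1, the ubiquitous PMCA that exports Ca2+, was at 199, 224, 224 and 196 CPM untreated and at 471, 480, 476, 417 and 446 CPM with zymosan, 2.17-fold higher (log2 1.12 ± 0.07 SE, edgeR adjusted p = 1.88e-11). Atp2a2, which refills the ER, was at 342, 345, 353 and 330 CPM untreated and at 391, 393, 387, 400 and 383 CPM with zymosan, 1.14-fold higher (log2 0.19 ± 0.04 SE, edgeR adjusted p = 0.000465). This direction depends on the scaling: with library totals in place of TMM factors the median gene moved to log2 -0.54 and Atp2a2 to -0.30, in the opposite direction but above that median. With library totals Stim1, Itpr1 and Itpr2 were also called lower, so that 7 of 10 were lower. The TMM factors were 0.8382 to 1.237 over the libraries. The level of Atp2a2 over Atp2b1 per kb of exon, which is not affected by scaling, was 4.08 ± 0.216 untreated and 2.14 ± 0.151 with zymosan. Its size depends on the length used. With the longest transcript, Atp2a2 and Atp2b1 were at 60.4 and 29.5 RPKM untreated and at 68.9 and 64.2 RPKM with zymosan.

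**Figure D2:**
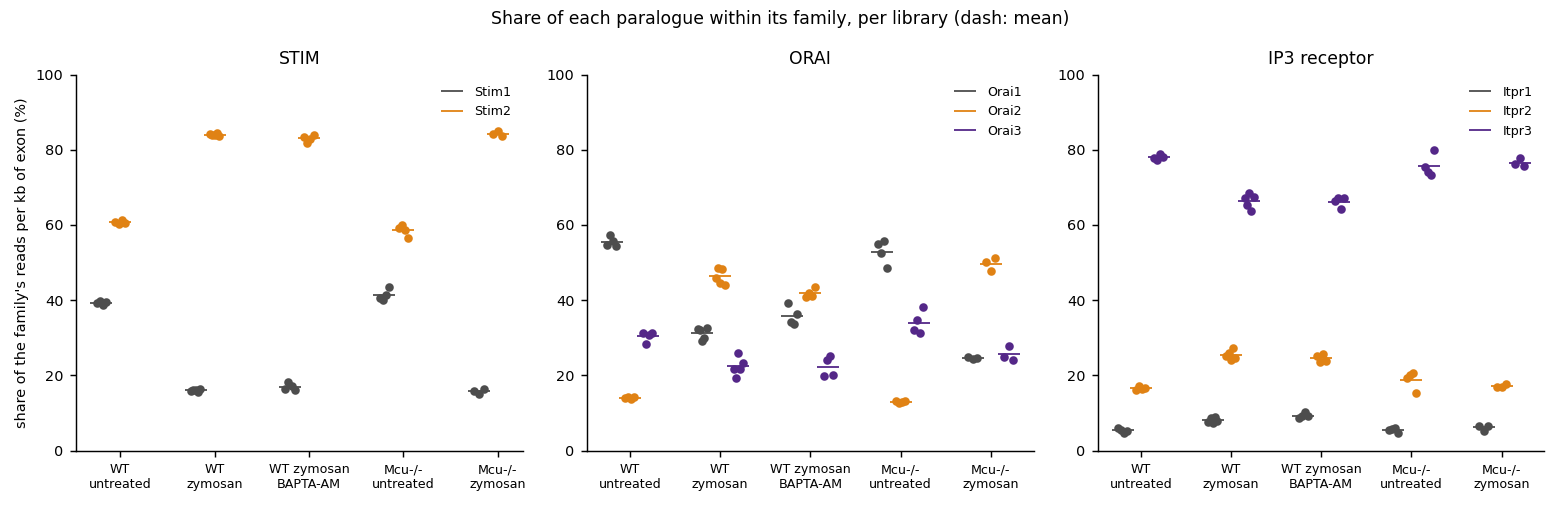
Share of each paralogue in its family's reads per kb of exon (y axis, %, from 0 to 100) in each library (points, dash for the mean) of the 5 groups (x axis), for STIM, ORAI and IP3 receptor genes. Stim2 and Orai2 took larger shares in all zymosan groups (Orai2 14.1% untreated and 46.3% with zymosan in WT), and Itpr3 had 66.5% in zymosan-treated WT and 76.6% in zymosan-treated Mcu-/- cells.

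BAPTA-AM with zymosan against zymosan in WT cells asks which of these changes differ when cytosolic Ca2+ is buffered. Orai2 alone of the 10 genes passed the test with all libraries, and it was lower. It was at 40.4, 42.1, 37.6 and 42.4 CPM with BAPTA-AM and at 55.2 to 60.4 CPM without, and these libraries lay between the untreated and the zymosan-treated ones without overlap. The difference was 1.4-fold lower (log2 -0.49 ± 0.07 SE, edgeR adjusted p = 8.41e-05). Of all genes tested, 6.43% were called higher and 6.33% lower, so 0 and 1 of 10 are near the background; no gene was higher at an unadjusted p under 0.05 or with DESeq2. The groups did not overlap for 2 of 10, against 24.3% of all genes. As untreated cells with BAPTA-AM were not among the groups, an effect of BAPTA-AM without zymosan cannot be told apart from an effect on the response.

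The other genes did not pass the test with all libraries. Besides Orai2, Atp2a2 was the gene whose groups did not overlap, at 355 to 373 CPM against 383 to 400 CPM with zymosan alone (exact two-sided permutation p = 0.00794). Stim2 was at 122, 123, 121 and 125 CPM (log2 -0.10 ± 0.04 SE, edgeR adjusted p = 0.148), Orai3 at 6.93, 8.51, 8.13 and 6.88 CPM (log2 -0.35 ± 0.14 SE, adjusted p = 0.102) and Atp2a2 at 355, 368, 373 and 364 CPM (log2 -0.10 ± 0.04 SE, adjusted p = 0.134). Itpr1 was at 12.4, 12.9, 13 and 12.2 CPM (log2 0.20 ± 0.12 SE, edgeR adjusted p = 0.321). Without untreated Mcu-/- replicate 4, which enters this comparison only through the common estimate of the spread, these 4 genes passed the test: Stim2, Orai3 and Atp2a2 lower and Itpr1 higher, with adjusted p from edgeR of 0.0368, 0.00439, 0.00336 and 0.0482. In that fit 15.3% of all genes were called higher and 16.5% lower. Stim1, Orai1, Itpr2, Itpr3 and Atp2b1 passed in neither fit, with log2 differences of 0.01, -0.14, -0.04, 0.00 and -0.01. The ORAI sum, 20.2 ± 0.867 RPKM with zymosan, was 16.0 ± 0.649 RPKM with BAPTA-AM, and Orai2 over Orai1 was 1.49 ± 0.104 and 1.17 ± 0.0839.

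**Figure D3:**
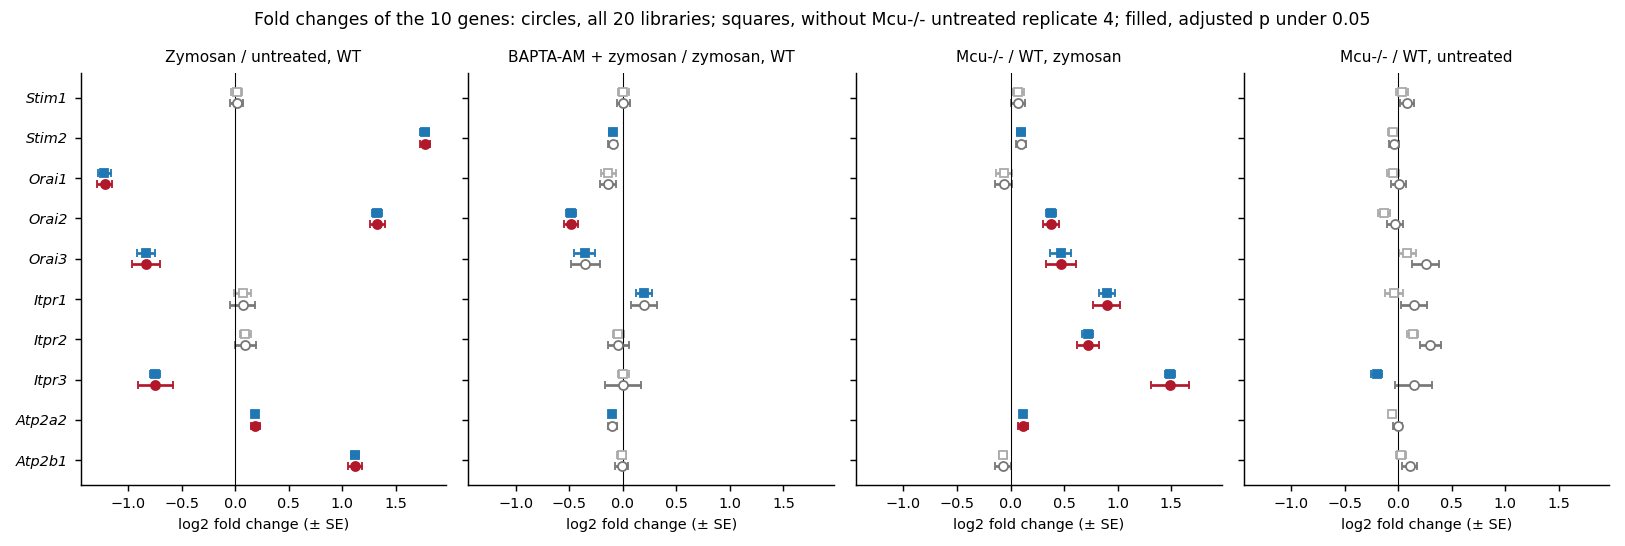
Log2 fold change with its SE (x axis) of each of the 10 genes (y axis) in 4 comparisons, from all 20 libraries (circles) and without untreated Mcu-/- replicate 4 (squares), filled where the adjusted p was under 0.05. The largest genotype differences under zymosan were those of the IP3 receptors (Itpr3 log2 1.49, Itpr1 0.90, Itpr2 0.72), and no circle was filled in untreated cells.

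Mcu-/- against WT cells with zymosan asks whether the stimulated state differs when the uniporter is lost. All 3 IP3 receptors, Orai2, Orai3 and Atp2a2 were higher in Mcu-/- cells, 6 of 10. None was lower by edgeR or DESeq2, and 0 were lower at an unadjusted p under 0.05. Of all genes tested, 31.8% were called higher and 30.3% lower. The groups did not overlap for 7 of 10, against 64% of all genes. This comparison uses the same WT zymosan libraries as the ones before, so the values are not independent of them.

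Itpr3 differed most. It was at 126, 132 and 117 CPM in Mcu-/- libraries and at 39.4 to 47 CPM in WT libraries, 2.81-fold higher (log2 1.49 ± 0.17 SE, edgeR adjusted p = 1.49e-06; exact two-sided permutation p = 0.0179, the smallest for these sizes). Itpr1 was at 22.4, 18.4 and 20.7 CPM against 10 to 12.2 CPM, 1.86-fold higher (log2 0.90 ± 0.12 SE, edgeR adjusted p = 9.24e-06). Itpr2 was at 46.1, 46.8 and 45.4 CPM against 26.3 to 29.9 CPM, 1.65-fold higher (log2 0.72 ± 0.10 SE, edgeR adjusted p = 1.08e-05). No Mcu-/- library fell within the WT range for any IP3 receptor. Their sum was 18.1 ± 0.793 RPKM in Mcu-/- and 7.43 ± 0.362 RPKM in WT cells, and Itpr3 made up 76.6% of it in Mcu-/- cells.

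Orai2 was at 70.2, 72.7 and 78.8 CPM in Mcu-/- libraries, 1.3-fold above WT (log2 0.38 ± 0.07 SE, edgeR adjusted p = 0.000201), and Orai3 was at 12.2, 15 and 13.1 CPM, 1.38-fold above (log2 0.47 ± 0.14 SE, adjusted p = 0.00755). Atp2a2 was at 412, 425 and 434 CPM, 1.08-fold above (log2 0.12 ± 0.05 SE, edgeR adjusted p = 0.03). Both small differences depend on single libraries: without Mcu-/- zymosan replicate 4 the adjusted p was 0.0504 for Orai3 and 0.0761 for Atp2a2, and Atp2a2 also missed the threshold without WT replicates 3 or 5 or Mcu-/- replicate 5 (adjusted p 0.0511, 0.0574 and 0.12). Stim1, Orai1 and Atp2b1 differed by log2 0.07 ± 0.07, -0.07 ± 0.08 and -0.07 ± 0.07 SE and did not pass the test. Stim2, at 144, 138 and 138 CPM, differed by log2 0.10 ± 0.04 SE, with an edgeR adjusted p of 0.0618 with all libraries and 0.0208 without untreated Mcu-/- replicate 4, where 7 genes were higher and 36.4% of all genes were called higher.

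Markers moved with these values. Summed macrophage markers were 9350 to 9620 CPM in zymosan-treated Mcu-/- cells and 15300 to 15600 CPM in WT cells with zymosan. The list was split: Lyz2 (3240 against 8180 CPM on average), Adgre1 (2840 against 4920), Itgam (275 against 869) and Mrc1 (279 against 355) had lower means in Mcu-/- libraries, and Cd68 (1160 against 309), Csf1r (1080 against 562), Fcgr1 (573 against 212) and Mertk (76 against 60.6 CPM) higher ones. The 5 stromal markers summed to 45 to 54.1 CPM and to 5.21 to 6.78 CPM. Most of the Mcu-/- sum came from Col1a1 (21.7 against 2.03 CPM on average) and Col1a2 (23.2 against 2.19). Col3a1 (3.73 against 0.906) and Cxcl12 (1.53 against 0.422) also had higher means, and Pdgfra (0.111 against 0.143 CPM) a lower one. Untreated Mcu-/- replicate 4, which received no zymosan by its label, had values of the same kind: 8610 CPM of macrophage markers, 29.4 CPM of stromal markers, Lyz2 at 2820 CPM and Cd68 at 971 CPM. In replicates 1 to 3 of that group Lyz2 was at 7820 to 8390, Cd68 at 251 to 259 and the stromal markers at 1.24 to 2.95 CPM. Col1a1 (13 CPM) and Col1a2 (12.1 CPM) made up most of the stromal sum of replicate 4. Its Pdgfra level (0.0794 CPM) was within that of replicates 1 to 3 (0.073 to 0.185 CPM). The part of these differences in the IP3 receptor values was not tested. In bulk RNA, fewer cells of a type and less RNA per cell cannot be told apart.

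Untreated Mcu-/- against WT cells asks whether the loss of the uniporter has an effect without a stimulus. None of the 10 genes passed the test by edgeR with all libraries, and 1, Itpr2, had an unadjusted p under 0.05 (0.00695, log2 0.30 ± 0.10 SE). DESeq2 called 0 as well. Of all genes tested, 0.128% were called higher and 0.222% lower. The groups did not overlap for 1 of 10 (Itpr2), against 7.09% of all genes. The 3 IP3 receptors differed between replicate 4 and the rest of its group. Itpr3 was at 68.6, 64.5 and 62.5 CPM in replicates 1 to 3 and at 135 CPM in replicate 4, where Mcu-/- zymosan libraries had 117 to 132 CPM. Itpr2 was at 28.7, 28.7 and 28.8 and then at 42.8 CPM, and Itpr1 at 10.1, 10.2 and 10.4 and then at 15.9 CPM. Of the genes that moved with zymosan in both genotypes, Stim2 in that library was at 37.6 CPM, Orai1 at 37.4 CPM and Orai2 at 26.9 CPM, where replicates 1 to 3 had 20 to 21.1 CPM of Orai2. Atp2b1 was at 263 CPM (207 to 222 in replicates 1 to 3), Atp2a2 at 377 CPM (328 to 335) and Orai3 at 27.6 CPM (17.7 to 19.1), the last above both the untreated and the zymosan-treated libraries. Without replicate 4, Itpr3 was lower in Mcu-/- cells (log2 -0.20 ± 0.05 SE, edgeR adjusted p = 0.0168; 62.5 to 68.6 CPM against 71.7 to 79.7 CPM in WT), the only call among the 10, with 1.53% of all genes called higher and 1.83% lower. Leaving out this library turned the sign of the Itpr3 difference from 0.14 to -0.20.

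Zymosan against no treatment in Mcu-/- cells gave 7 genes higher and 2 lower. Of all genes tested, 34.3% were called higher and 39.4% lower, or 39.2% and 42.4% without untreated replicate 4, where the counts of 7 and 2 were equal. The groups did not overlap for 8 of 10, against 61.7% of all genes. Stim2 went from 39.5, 34.9, 36.9 and 37.6 CPM to 144, 138 and 138 CPM (log2 1.91 ± 0.05 SE, edgeR adjusted p = 3.65e-17). Orai2 went from 21.1, 20, 21 and 26.9 CPM to 70.2, 72.7 and 78.8 CPM (log2 1.73 ± 0.08 SE, edgeR adjusted p = 2.75e-13), and Atp2b1 from 222, 207, 215 and 263 CPM to 443, 433 and 432 CPM (log2 0.94 ± 0.07 SE). Orai1 went from 33.4, 30.9, 34 and 37.4 CPM to 13.2, 14 and 14.3 CPM (log2 -1.29 ± 0.08 SE), and Orai3 fell by 0.62 ± 0.14 SE on the log2 scale. Itpr1, Itpr3, Itpr2 and Atp2a2 were higher by log2 0.82, 0.60, 0.52 and 0.31. Their exact two-sided permutation p were 0.0571, 0.143, 0.0571 and 0.0571, where the smallest for these sizes is 0.0286. With library totals, the median gene moved to log2 -0.58, Itpr2 and Itpr3 no longer passed the test and Atp2a2 turned to -0.21. Stim1 was called lower there, at -0.52. For Itpr3 the groups overlapped, as replicate 4 at 135 CPM was above the zymosan libraries. Without that library its rise was 0.94 ± 0.05 SE on the log2 scale.

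The difference of the zymosan responses between the genotypes was tested directly, as the response in Mcu-/- minus that in WT. It was above 0 for Itpr3 (log2 1.35 ± 0.24 SE, edgeR adjusted p = 0.000503), Itpr1 (0.75 ± 0.18, adjusted p = 0.00338), Itpr2 (0.42 ± 0.14, adjusted p = 0.0284) and Orai2 (0.41 ± 0.10, adjusted p = 0.00577), and below 0 for none (0 also at an unadjusted p under 0.05 and with DESeq2). The call of Itpr2 was lost without any 1 of 7 libraries (edgeR adjusted p up to 0.0619): WT untreated replicates 2 or 3, Mcu-/- untreated replicates 1, 2 or 3, or Mcu-/- zymosan replicates 3 or 4. It was also lost with the replicate number as a block (adjusted p = 0.056). Of all genes tested, 15.2% were called above 0 and 20% below. Itpr3 was the gene called in opposite directions, lower with zymosan in WT and higher in Mcu-/- cells. Its rise in Mcu-/- cells was against untreated replicates 1 to 3 (62.5 to 68.6 CPM). Untreated replicate 4 (135 CPM) was above the zymosan libraries (117 to 132 CPM), and with library totals the rise was not called. Without untreated Mcu-/- replicate 4, 7 genes were called above 0: the same 4 with Stim2 (0.15), Orai3 (0.38) and Atp2a2 (0.17) added. In that fit 31% of all genes were called above 0 and 29.3% below. Stim1, Orai1 and Atp2b1 passed in neither fit, with log2 differences of -0.02 ± 0.09, -0.07 ± 0.11 and -0.18 ± 0.10 SE. In the Mcu-/- zymosan libraries Lyz2 was at 3220 to 3280 CPM and Cd68 at 1140 to 1170 CPM. Untreated Mcu-/- replicate 4 had 2820 and 971 CPM, and replicates 1 to 3 had 7820 to 8390 and 251 to 259 CPM. Without replicate 4, the fit held no untreated Mcu-/- library with such marker values. The part of this marker state in the difference of responses was not tested.

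**Figure D4:**
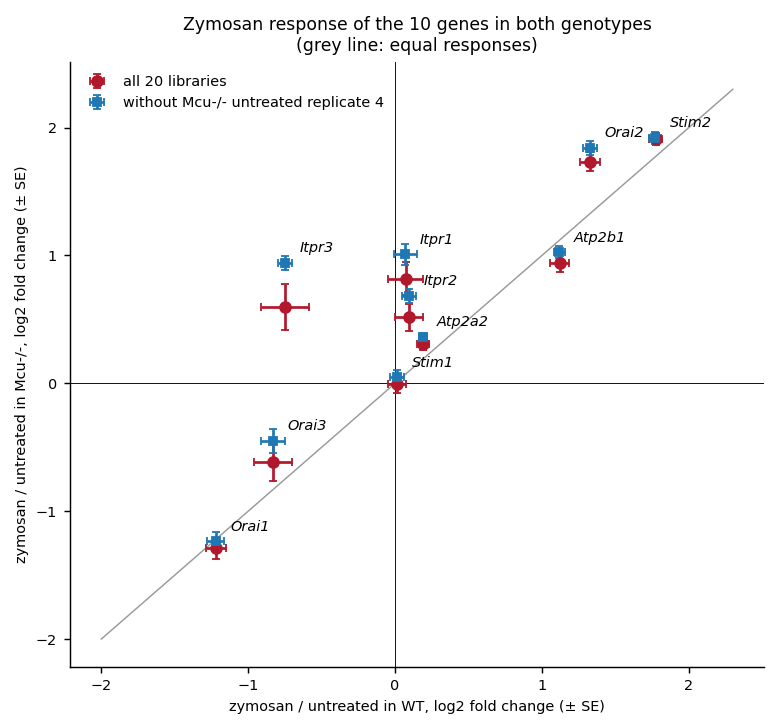
Zymosan response of each gene in WT (x axis) and in Mcu-/- cells (y axis), as log2 fold changes with their SE, from all 20 libraries (circles) and without untreated Mcu-/- replicate 4 (squares); the grey line marks equal responses. Itpr3 was below 0 in WT (-0.75) and above 0 in Mcu-/- cells (0.60, or 0.94 without replicate 4). Itpr1, Itpr2 and Orai2 were also above the line. With all libraries the responses of the other genes were not called different between the genotypes.

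Genes of the same pathway were taken from 6 lists of 75 genes, of which 73 were found and 55 tested. With zymosan in WT cells 21 were higher and 17 lower, where 32.4% of all genes tested were higher and 36.8% lower, so these counts are near the background. Without untreated Mcu-/- replicate 4 they were 26 and 20. In the list on IP3 production and removal, 5 of 13 tested genes were higher and 6 lower; the IP3 kinase gene Itpkc was at 5.63 ± 0.465 CPM untreated and at 47.4 ± 3.67 CPM with zymosan (log2 3.07 ± 0.11 SE, edgeR adjusted p = 7.94e-15), and its paralogue Itpkb rose by log2 1.13 ± 0.07 SE. Plcg1, a phospholipase C, fell by 1.07 ± 0.10 SE. Of 9 other plasma membrane Ca2+ channel genes, 4 were higher and 3 lower, among them the mechanically gated channel Piezo1, at 298 ± 20.1 and 1170 ± 56.1 CPM, and the ATP-gated P2rx7, at 53.8 ± 1.49 and 18.4 ± 0.786 CPM. Of 11 ER luminal Ca2+-binding genes, 6 were higher and 0 lower (9 and 1 without that library, with Calr among the 9), such as Rcn1 (log2 2.06 ± 0.09 SE) and the chaperone Hspa5 (log2 0.67 ± 0.12 SE). Of 8 regulators of STIM and ORAI, 1 was higher and 5 lower: Saraf, which inactivates STIM, rose by log2 0.17 ± 0.05 SE, and Slc35g1, a partner of STIM1, fell by 0.77 ± 0.23 SE. The list medians were log2 -0.16, 0.06, 0.28 and -0.36 in that order, where the median of all genes was -0.04.

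With BAPTA-AM, 3 of the 55 were higher and 4 lower, against 6.43% and 6.33% of all genes. Without untreated Mcu-/- replicate 4 the counts were 9 and 11, against 15.3% and 16.5%. Itpkc was at 27.9 ± 3.23 CPM with BAPTA-AM and 47.4 ± 3.67 CPM with zymosan alone (log2 -0.76 ± 0.10 SE, edgeR adjusted p = 2.99e-05). Esyt2, which tethers the ER to the plasma membrane, was at 93.9 ± 1.5 CPM against 61.5 ± 2 CPM (log2 0.61 ± 0.04 SE, edgeR adjusted p = 2.37e-08).

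In Mcu-/- against WT cells with zymosan, 19 of the 55 were higher and 18 lower (21 and 19 without untreated Mcu-/- replicate 4). Of all genes 31.8% were higher and 30.3% lower, so these counts are near the background, against which the counts of each list also stand. The other plasma membrane channels were lower in 7 of 9 tested genes and higher in none: the ATP-gated P2rx1 was at 1.89 ± 0.339 CPM in Mcu-/- and 8.83 ± 0.351 CPM in WT cells (log2 -2.22 ± 0.32 SE), and Piezo1 at 597 ± 20.1 against 1170 ± 56.1 CPM (log2 -0.97 ± 0.13 SE). ER luminal genes were higher in 8 of 11 and lower in 2, with Hspa5 at 3320 ± 75.2 against 1950 ± 69.1 CPM and Calr (calreticulin) at 2330 ± 76.4 against 1420 ± 25.1 CPM. The lower ones were Rcn1 (log2 -0.96 ± 0.09 SE) and Rcn2 (-0.63 ± 0.12 SE). Of 4 tested genes for other pumps and exchangers, 2 were higher and 2 lower: Atp2b4, another PMCA (14.4 ± 0.748 against 3.75 ± 0.88 CPM), and the Na+/Ca2+ exchanger Slc8a1 (26.6 ± 1.43 against 11.2 ± 1.01 CPM) were higher, and Atp2a3, the SERCA3 gene of haematopoietic cells (3.59 ± 0.515 against 25 ± 1.42 CPM), and Atp2c1, a Golgi pump (log2 -0.54 ± 0.11 SE), were lower. Of 10 other ER release channels and IP3 receptor regulators, 6 were higher and 1 lower, with Erlin2, which directs degradation of active IP3 receptors, up by log2 0.84 ± 0.14 SE. Among regulators of STIM and ORAI, 3 of 8 were higher and 1 lower. In the list on IP3 production and removal, 0 of 13 were higher and 5 lower (1 and 6 without untreated Mcu-/- replicate 4). Among the lower ones, Itpkc was at 23.6 ± 0.87 against 47.4 ± 3.67 CPM (log2 -1.01 ± 0.11 SE).

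Some of these genes, picked after their values were seen, had in untreated Mcu-/- replicate 4 values near those of the zymosan-treated Mcu-/- libraries. Atp2a3 was at 22.6 to 27.6 CPM in replicates 1 to 3, at 4.13 CPM in replicate 4 and at 3.28 to 4.18 CPM in the zymosan-treated libraries. Slc8a1 was at 13 to 13.3, then 29.6 and 25.2 to 28 CPM, P2rx1 at 8.43 to 10.1, then 2.62 and 1.53 to 2.2 CPM, and Calr at 1110 to 1150, then 2060 and 2250 to 2400 CPM. In contrast, P2rx7 was at 47.2 CPM and Itpkc at 7.82 CPM in replicate 4, where the zymosan-treated libraries had 13.4 to 15.2 and 23 to 24.6 CPM.

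Across the 20 libraries, the genes whose levels followed each member most closely were named by Pearson's r of log2 CPM over 8914 genes with at least 5 CPM, as a description of libraries that share groups. For Stim2 they were Mapkapk2 (r = 0.9986) and Rel (0.9982), for Orai1 Ppp1r3b (0.9941) and Mef2a (0.9895), and for Orai2 Hspa1b (0.9933) and Urgcp (0.9917). Atp2b1 was followed by Gna13 (0.9939) and Cd83 (0.9934), Atp2a2 by Cyfip1 (0.9758) and Coa5 (0.9731), and Orai3 by Apobec1 (0.9651) and Adora2b (0.9636). For the IP3 receptors they were Cxcl14 (0.9937) and Myo1f (0.9889) with Itpr3, Folr2 (0.9882) and Cd9 (0.9799) with Itpr2, and Cnot1 (0.9632) and Cul1 (0.9623) with Itpr1. Stim1 was followed by Wdr46 (0.8008) and Bcl7b (0.7549).

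By position (mm10, GENCODE M21), 4 of the genes lie on chromosome 5: Stim2 (chr5:53998499-54121057), Atp2a2 (chr5:122453513-122502225), Orai1 (chr5:123015074-123030456) and Orai2 (chr5:136147459-136170713). Stim1 (chr7:102267806-102437319) and Orai3 (chr7:127769815-127775150) lie on chromosome 7, Itpr1 (chr6:108213096-108551109) and Itpr2 (chr6:146108299-146502223) on chromosome 6, Itpr3 at chr17:27057304-27122223 and Atp2b1 at chr10:98914406-99026143. Genes on the opposite strand overlap 2.59% of the exon bases of Itpr3 (in part Mir7677 on the same strand), 1.58% of Itpr1, 1.36% of Atp2a2 and 0.305% of Orai1. Whether counting used strand is not given in the sources used here, so reads in those bases could belong to either gene.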

How the data were processed

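The authors deposited 1 table of counts per gene, which are whole numbers without normalization. Per the study's methods, paired-end reads were checked with FastQC and MultiQC, freed of adaptors with cutadapt, mapped to mm10 with STAR and counted with HTSeq; strand settings are not given in the sources used here. For zymosan-treated Mcu-/- cells the table numbers its columns 3 to 5 and the labels 1 to 3; libraries are named by column.

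Counts were filtered with filterByExpr, scaled with TMM factors and fitted for all 20 libraries in edgeR 4.0.16 (R 4.3.3) by the quasi-likelihood test, with 1 coefficient per group and no covariate. A Benjamini-Hochberg adjusted p under 0.05 over all genes tested made a call. For each gene the groups' mean log2 CPM were set side by side in an exact permutation test, two-sided. RPKM used the union of exons in GENCODE M21. Named pathway genes were at most 2 called rises and 2 called falls per list and comparison, taken by size among genes with at least 5 CPM in the higher group. The members and lists were chosen with earlier results of these data known. Alternatives were DESeq2 1.42.0 and its size factors, library totals, other filters, only the groups compared, a replicate block and leaving out each library. The fit was also run on simulated counts, for zymosan against no treatment in WT cells. These counts had the same spread for all genes and no outlying library. That run thus does not cover a library like untreated Mcu-/- replicate 4. Intervals and SEs cover the spread between libraries, which totalled 14.4 M to 24 M counts.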

Additional observations from a re-analysis of the deposited data

Results flagged for a closer look

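In 40 groups of 4 or 5 libraries over the 10 genes, a library far from the others was sought, by a rule that chance passes in about 1 in 20. The 10 genes share the same libraries, so these checks are not independent and the count cannot be set against that rate. In 7 of the 40 groups such a library was found. Of these, 5 were untreated Mcu-/- replicate 4: Itpr3 at 135 CPM (others 62.5 to 68.6), Itpr2 at 42.8 CPM (28.7 to 28.8), Itpr1 at 15.9 CPM (10.1 to 10.4), Orai3 at 27.6 CPM (17.7 to 19.1) and Atp2a2 at 377 CPM (328 to 335). The other 2 were WT zymosan replicate 4, with Stim2 at 123 CPM (others 131 to 135) and Itpr3 at 39.4 CPM (45.3 to 47).

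The zymosan response, as Mcu-/- minus WT, differed between the genotypes by edgeR's interaction test for Itpr3 (log2 1.346), Itpr1 (0.748), Itpr2 (0.421) and Orai2 (0.405). The call of Itpr2 was lost without any 1 of 7 libraries (edgeR adjusted p up to 0.0619) and with the replicate block (adjusted p = 0.056). How far the marker state shared by untreated Mcu-/- replicate 4 and the Mcu-/- zymosan libraries enters these responses was not tested.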

How the results depend on the processing

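Library totals in place of TMM factors had the widest effect. With zymosan in WT cells 7 genes were lower in place of 3, with Stim1 at -0.477, Itpr1 at -0.42, Itpr2 at -0.396 and Atp2a2 at -0.303. In Mcu-/- cells 4 were higher and 4 lower in place of 7 and 2, with Atp2a2 at -0.211 and Stim1 at -0.522. Itpr2 (0.019) and Atp2b1 (0.049) with BAPTA-AM and Orai1 untreated (-0.018) turned sign near 0. By construction, library totals leave the shift of the median gene (log2 -0.54 and -0.58) in the values. With only the groups compared in the fit, BAPTA-AM gave 1 gene higher and 4 lower in place of 0 and 1, and Mcu-/- against WT with zymosan 1 lower in place of 0 (Atp2b1); DESeq2 gave 3 lower with BAPTA-AM. Other signs turned only for genes not called: Stim1 at -0.003 in WT and Itpr3 at 0 with BAPTA-AM with at least 10 counts in every library, where Orai1 untreated was at -0.001; with DESeq2's size factors Stim1 at -0.013 and Itpr3 at -0.017 with BAPTA-AM and Stim1 at 0.044 with zymosan in Mcu-/- cells; with DESeq2's test the same 3 at -0.014, -0.017 and 0.044 and Orai1 untreated at 0; and Stim1 in Mcu-/- cells at 0.016 with only the groups compared. With the longest transcript as length 4 of 10 genes kept their rank in untreated WT cells. The cause was not tested for these changes.

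Leaving out 1 library at a time gave 4 higher and 3 lower with zymosan in WT cells and 7 and 2 in Mcu-/- cells in all 20 runs. It gave 0 to 1 higher and 1 to 4 lower with BAPTA-AM, 4 to 7 higher and 0 lower for Mcu-/- against WT with zymosan, 0 to 1 lower untreated and 3 to 7 higher for the difference of responses; each highest count was reached without untreated Mcu-/- replicate 4. Itpr2 in that difference missed the threshold without any 1 of 7 libraries, with adjusted p (edgeR) up to 0.0619. Genes whose sign turned without 1 library were, with their lowest and highest values over the 20 runs, Stim1 (-0.011 to 0.047 with zymosan in WT, -0.041 to 0.029 with BAPTA-AM, -0.057 to 0.047 with zymosan in Mcu-/- and -0.07 to 0.034 for the difference of responses), Itpr3 (-0.04 to 0.044) and Atp2b1 (-0.044 to 0.008) with BAPTA-AM, and, untreated, Orai1 (-0.046 to 0.049), Orai2 (-0.131 to 0.021), Itpr1 (-0.039 to 0.213), Itpr3 (-0.2 to 0.255) and Atp2a2 (-0.054 to 0.016).

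Same-numbered libraries showed little shared deviation from their group means: of 33 pairs, 3 had a correlation over 0.1, in a range of -0.193 to 0.159. This check cannot exclude a pairing. Untreated Mcu-/- replicate 4 shifts the mean of its group, and the Mcu-/- zymosan columns carry other numbers than the labels. With the replicate block, Atp2a2 in Mcu-/- against WT with zymosan was at 0.107 (edgeR adjusted p = 0.0882) and Itpr2 in the difference of responses at 0.416 (adjusted p = 0.056), both no longer past the threshold; no other call changed. Atp2a2 in that comparison was also not called without a filter (0.107, adjusted p = 0.0775) or with library totals (0.065, adjusted p = 0.115).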
